A study of Mus musculus with 6 samples.

Results

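The miRNAs described here are mmu-miR-132, mmu-miR-212, mmu-miR-221 and mmu-miR-222, 4 of the 698 mature miRNAs listed for each library. They were chosen by name as pairs of related miRNAs with a known part in growth. MicroRNAs (miRNAs) are short RNAs that pair with messenger RNAs, mainly through their bases 2 to 8 (the seed), and lower the output of those messengers. Their reads were counted in small-RNA libraries of left ventricle from 3 wild-type mice (WT) and 3 mice with the R719W mutation in Myh6 (R719W), whose genotype the labels write as aMHC719/+. Myh6 encodes the α-myosin heavy chain of the mouse ventricle, and R719W is a mutation of hypertrophic cardiomyopathy (HCM), in which the heart muscle thickens. Mice of both genotypes had been given cyclosporin, which inhibits the phosphatase calcineurin, for 3 weeks, so the controls were treated too and the comparison asks what the mutation changes under the drug. The series' design text gives 3 mice per genotype, and each library is labelled as a biological replicate; the sources used here do not give age, sex or strain.

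miR-132 and miR-212 are made from one primary transcript. In neurons that transcript is known to be switched on by the transcription factor CREB. In the mouse heart both miRNAs are known to repress Foxo3, a transcription factor that holds back cardiomyocyte growth and calcineurin signalling, and mice that overproduce them in cardiomyocytes develop enlarged hearts. miR-221 and miR-222 are likewise made together and repress Cdkn1b, an inhibitor of the cell cycle. They are known from vascular smooth muscle, where they favour proliferation, and miR-222 is needed for the growth of the mouse heart with exercise.

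The mature sequences show what each pair shares. They are given as RefSeq has them (GRCm38.p6), 5′ to 3′, with the seed in capitals:
mmu-miR-132: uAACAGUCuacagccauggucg
mmu-miR-212: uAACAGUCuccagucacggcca
mmu-miR-221: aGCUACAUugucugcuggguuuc
mmu-miR-222: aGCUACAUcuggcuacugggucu

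miR-132 and miR-212 had the seed AACAGUC in common, and miR-221 and miR-222 the seed GCUACAU. Without gaps, miR-132 and miR-212 were identical at 17 of 22 positions, the first 9 among them. The differences, counted from the 5′ end with the base of miR-132 first, were A10C, C14U, U17C, U20C and G22A. miR-221 and miR-222 were identical at 11 of 23 positions, 8 of them at the start. No other listed miRNA had the seed of miR-132. The seed of miR-221 also occurred in miR-1928, which had 0 reads in the 6 libraries. For miR-222 the deposited table gives 21 bases, 2 fewer at the 3′ end than the 23 of RefSeq, and the other members matched RefSeq at full length. How longer reads of miR-222 were counted is not stated. Any effect on its level and on its ratio to miR-221 was not tested.

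In GRCm38 the hairpins of each pair lie side by side. Those of miR-212 (chr11:75173388-75173478) and miR-132 (chr11:75173682-75173747) are both on the plus strand and 203 bases apart, in the same intron of the noncoding gene 1700016P03Rik. Those of miR-221 (chrX:19146294-19146388) and miR-222 (chrX:19146893-19146971) are on the minus strand, 504 bases apart and outside any annotated host gene. The hairpins of the first pair are shown because their 2 miRNAs were read so unequally. Capitals mark the mature miRNA that the tables list:
Mir132: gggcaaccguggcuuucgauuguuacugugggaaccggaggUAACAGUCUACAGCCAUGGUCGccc
Mir212: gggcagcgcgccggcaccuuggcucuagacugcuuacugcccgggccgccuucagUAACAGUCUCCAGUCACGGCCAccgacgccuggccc

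In each of the 4 hairpins the listed miRNA was the 3′ arm, and the opposite arms are not analysed here. Reads on all listed miRNAs came to between 765425 and 1192020 per library. Replicates of a genotype differed beyond counting noise (chi-square per degree of freedom 35.8 to 350 over the tested miRNAs). None was thus a repeat count of the same library. This cannot tell libraries of different mice from separate libraries of the same RNA. Levels are in CPM, a count scaled to the depth of the library's reads on listed miRNAs, and were adjusted between libraries by TMM, a trimmed mean of miRNA ratios. Intervals on single libraries are exact 95% Poisson intervals, except that a count of 0 is given an upper limit of 3 reads, and they cover counting error only, since the reads carry no molecular identifiers. The cardiomyocyte markers miR-1 and miR-208a stood at 557754 ± 111530 and 91473 ± 19929 CPM in WT (SD, n = 3).

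One member of the 4 rose in R719W: miR-132, by 2.46-fold. miR-221 had almost the same mean in both genotypes. miR-222 and miR-212 had too few reads for the test, which needed about 10 reads in 3 libraries. Of the 181 miRNAs tested with edgeR (quasi-likelihood), 36 (19.9%) passed a Benjamini-Hochberg adjusted p of 0.05, 23 of them (12.7%) higher and 13 (7.18%) lower in R719W. Scaling by the size factors of DESeq2 made this split 12 to 15, scaling by library totals 34 to 3, and totals that leave out the 5 most abundant miRNAs 14 to 6. Single libraries mattered as well: 4 miRNAs passed when WT replicate 1 or WT replicate 3 was left out, 20 in the absence of WT replicate 2, 7 in the absence of R719W replicate 3 and 56 in that of R719W replicate 1. Among the members, 1 of 2 tested passed, which with so few members says nothing about the group.

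**Figure D1:**
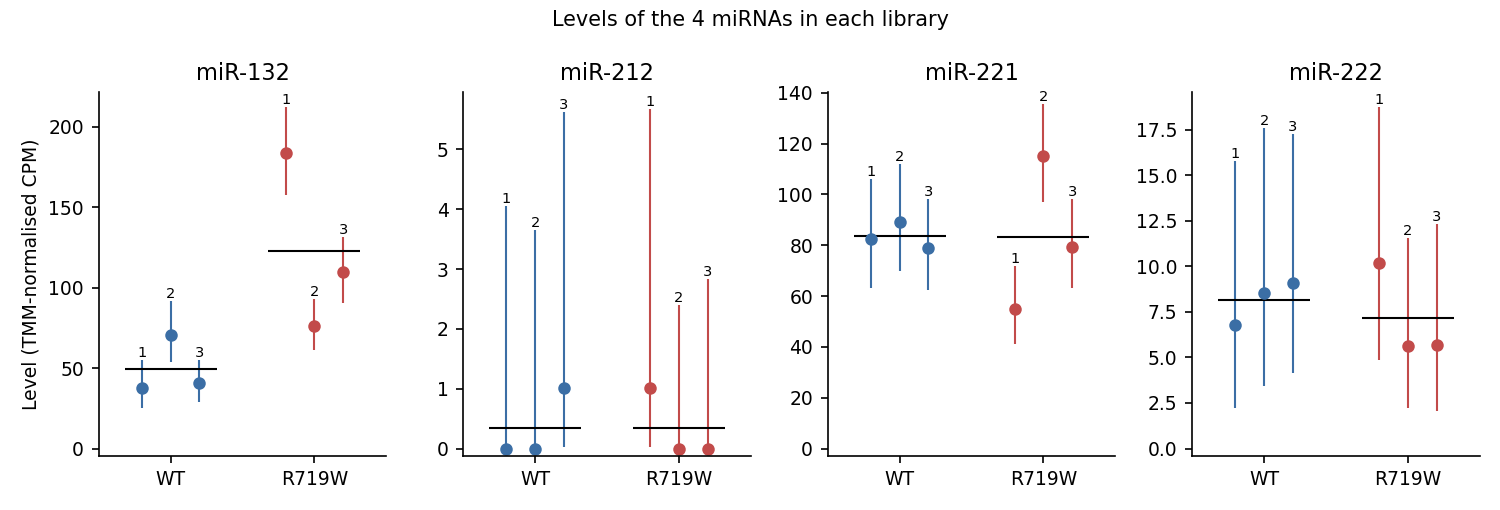
Level of each member in each library, in TMM-normalised CPM on linear axes that differ between panels; bars are exact 95% Poisson intervals (up to 3 reads for a count of 0), black lines genotype means, and numbers the replicates. miR-132 lay higher in all R719W libraries, miR-221 spread widely in R719W, and miR-222 and miR-212 rested on at most 10 reads and 1 read.

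miR-132 was measured on 28, 58 and 40 reads in WT replicates 1, 2 and 3 and on 180, 95 and 116 reads in R719W replicates 1, 2 and 3. Its levels were 37.9, 70.7 and 40.4 CPM in WT and 183, 76.0 and 109 CPM in R719W. The genotypes did not overlap, but the gap was narrow: R719W replicate 2 lay just above WT replicate 2, and their intervals overlapped (61.5 to 92.9 and 53.7 to 91.4 CPM). Such a separation, with all 3 R719W levels above all 3 WT levels, was seen in 24.9% of the tested miRNAs.

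The mean level of miR-132 went from 49.7 ± 18.3 CPM in WT to 122.9 ± 54.9 CPM in R719W (SD, n = 3). The log2 fold change was 1.30 (SE 0.37, 95% interval 0.48 to 2.12), with an adjusted p of 0.0325 (edgeR). Among all tested miRNAs it held rank 9 by log2 fold change and rank 30 by p. The spread between replicates was larger than counting allows: the coefficient of variation was 36.8% in WT and 44.7% in R719W, against 15.4% and 8.76% from counting alone. The rise was positive in all 15 alternative fits that measured it. It did not pass with the size factors of DESeq2 in place of TMM (log2 fold change 1.19, edgeR adjusted p = 0.0533), nor without WT replicate 1, WT replicate 3 or R719W replicate 3 (edgeR adjusted p = 0.171, 0.156 and 0.0777). Without R719W replicate 1, its highest library, the log2 fold change was 0.84 (edgeR adjusted p = 0.0136).

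miR-212 was read once in WT replicate 3, once in R719W replicate 1 and in no other library. Its single reads correspond to 1.01 and 1.02 CPM, and in the 4 libraries without a read the limit of 3 reads corresponds to 2.40 to 4.06 CPM. Over all libraries 517 reads fell on miR-132 and 2 on miR-212. miR-212 made up 1 of 127 reads of the pair in WT (0.787%, exact 95% binomial interval 0.0199% to 4.31%) and 1 of 392 in R719W (0.255%, interval 0.00646% to 1.41%). These intervals pool the reads of 3 libraries, leave out the spread between them and overlap widely. The log2 ratio of miR-132 to miR-212 reads averaged 5.82 ± 1.06 in WT and 7.45 ± 0.49 in R719W (SD, n = 3, 0.5 reads added to each count). The groups did not overlap (exact permutation test, two-sided, p = 0.1, the smallest possible). With at most 1 read of miR-212 per library this ratio mainly follows miR-132, so a change in the balance of the pair could not be judged. In the 4 libraries with 0 reads of miR-212, the count of miR-132 was 9.33-fold, 19.3-fold, 31.7-fold and 38.7-fold a floor of 3 reads. These folds leave out the counting error of miR-132. Different miRNAs are ligated and amplified with different efficiency, so a ratio between miRNAs of one library is not a ratio of molecules.

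Taking the pair together, miR-132 and miR-212 held 0.00481% ± 0.00239 of all miRNA reads in WT and 0.0130% ± 0.00471 in R719W (SD, n = 3). The shares did not overlap (exact permutation test, two-sided, p = 0.1, the smallest that 3 against 3 libraries can give). The gap was narrow, with WT replicate 2 at 0.00758% and R719W replicate 2 at 0.00813%. As miR-212 had 2 reads over all libraries, this share mainly follows miR-132 and is no separate result. By TMM-normalised level, all 3 R719W libraries lay above all 3 WT libraries in 24.9% of the tested miRNAs.

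miR-221 was measured on 61, 73 and 78 reads in WT replicates 1, 2 and 3, which correspond to 82.6, 89.0 and 78.8 CPM. In R719W replicates 1, 2 and 3 it had 54, 144 and 84 reads, or 55.0, 115 and 79.3 CPM. The R719W libraries therefore lay on both sides of the WT libraries, replicate 1 below all of them and replicate 2 above all of them.

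The means of miR-221 were 83.5 ± 5.17 CPM in WT and 83.2 ± 30.3 CPM in R719W (SD, n = 3). The log2 fold change was 0.0028 (SE 0.27), and its adjusted p of 0.992 (edgeR) was the highest of all tested miRNAs. The 95% interval ran from −0.61 to 0.61, so a rise to 1.53-fold or a fall to 0.656-fold of the WT level remained within it. The sign was not fixed: it was negative with the size factors of DESeq2 (−0.10) and positive with library totals alone (0.22). The coefficient of variation was 6.19% in WT, below the 11.9% that counting alone gives, and 36.4% in R719W, against 10.3% from counting. A difference in spread between the genotypes was not tested.

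miR-222 was read 5, 7 and 9 times in WT replicates 1, 2 and 3 and 10, 7 and 6 times in R719W replicates 1, 2 and 3. Its levels were 6.77, 8.54 and 9.09 CPM in WT and 10.2, 5.60 and 5.66 CPM in R719W. The genotypes overlapped, and R719W replicate 1, the highest library, had an interval of 4.88 to 18.7 CPM that covered all others. In a fit with no filter on low counts, its log2 fold change was −0.31 (SE 0.51, edgeR adjusted p = 0.692).

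miR-222 made up 7.58%, 8.75% and 10.3% of the reads of its pair in WT replicates 1, 2 and 3. In R719W replicates 1, 2 and 3 it made up 15.6%, 4.64% and 6.67%. The exact 95% binomial interval of R719W replicate 1, 7.76% to 26.9%, overlapped those of the other R719W libraries, 1.88% to 9.32% and 2.49% to 13.9%. The log2 ratio of miR-222 to miR-221 reads averaged −3.27 ± 0.22 in WT, and in R719W it averaged −3.45 ± 0.97 (SD, n = 3, 0.5 reads added to each count; exact permutation test, two-sided, p = 0.8). The pair as a whole held 0.00861% ± 0.00164 of all reads in WT against 0.00984% ± 0.00340 in R719W (SD, n = 3), a difference within the spread of the libraries (exact permutation test, two-sided, p = 0.7).

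By their values in the libraries, miR-221 (78.8 to 89.0 CPM) lay above miR-132 (37.9 to 70.7) in WT, followed by miR-222 (6.77 to 9.09) and miR-212 (at most 1.01). The interval of miR-132 in WT replicate 2, 53.7 to 91.4 CPM, covered all WT levels of miR-221, and the intervals of miR-222 and miR-212 overlapped, so neighbours in this order were not separated in every library. In R719W, miR-132 (76.0 to 183 CPM) and miR-221 (55.0 to 115) overlapped, and both lay above miR-222 (5.60 to 10.2). Over the 6 libraries miR-132 and miR-221 stood at similar means of 86.3 and 83.3 CPM, ranks 106 and 108 of the 698 listed miRNAs.

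Within a library, miR-132 exceeded miR-221 most in R719W replicate 1. The ratio of miR-132 to miR-221 reads was 0.459, 0.795 and 0.513 in WT replicates 1, 2 and 3, and 3.33, 0.660 and 1.38 in R719W replicates 1, 2 and 3. R719W replicate 2 fell within the WT range, and the other R719W libraries lay above it. The mean log2 ratio was −0.80 ± 0.41 in WT and 0.53 ± 1.16 in R719W (SD, n = 3, 0.5 reads added to each count), and the difference of 1.33 came with overlapping groups (p = 0.2 by a two-sided exact permutation test over libraries, where 3 against 3 libraries allow no p below 0.1). It was 0.73 without R719W replicate 1 and up to 1.89 with another library left out. This ratio was chosen after the values were seen. The permutation test could not reach 0.05, and no other test of whether miR-132 and miR-221 responded differently was run.

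**Figure D2:**
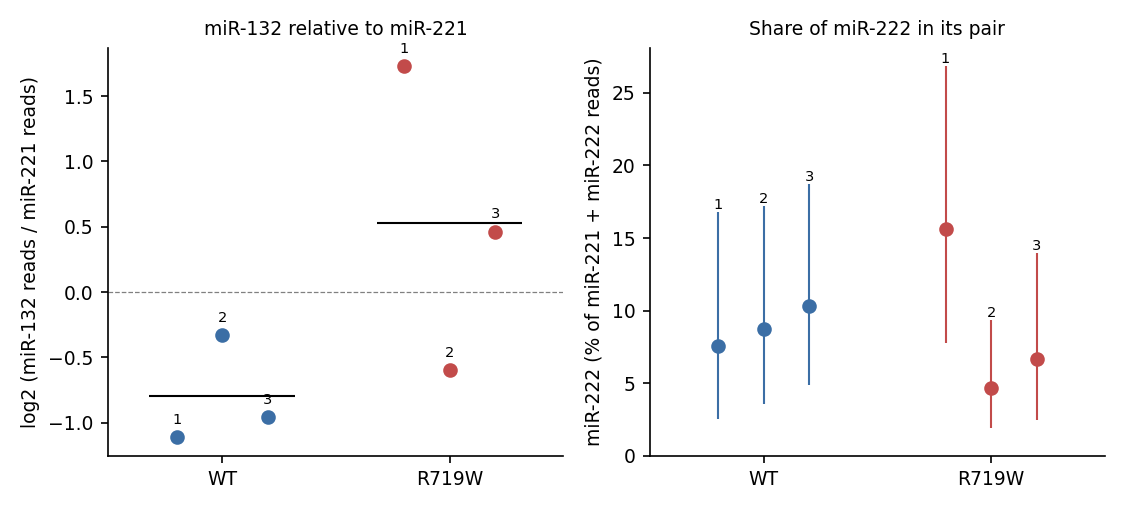
Left, log2 ratio of miR-132 to miR-221 reads in each library, with black lines for the genotype means; right, miR-222 as a percent of the reads of its pair, with exact 95% binomial intervals. The left ratio is highest in R719W replicate 1 and R719W replicate 2 lies within the WT range; on the right the same R719W replicate 1 has the highest share, 15.6%.

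**Figure D3:**
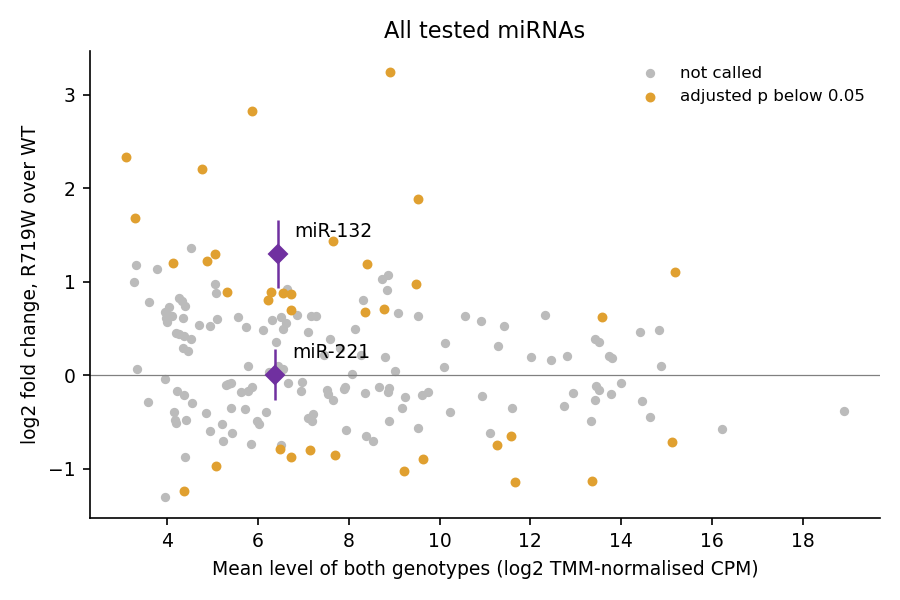
Log2 fold change of R719W over WT against mean level (log2 of TMM-normalised CPM) for the 181 tested miRNAs, with called miRNAs in orange and the tested members as diamonds with SE bars. At nearly the same level, miR-132 lies at 1.30 and miR-221 at 0.0028.

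The patterns most like those of the members were found as the smallest root mean square difference between log2 levels, each centred on its own mean, over the 6 libraries. For miR-132 they were those of miR-455, let-7i and miR-433, at 0.21, 0.22 and 0.24 log2 units, against a median of 0.81 over all tested miRNAs. let-7i, an abundant member of the let-7 family, stood at 20084, 28430 and 22034 CPM in WT replicates 1, 2 and 3 and at 69115, 39950 and 43163 CPM in R719W replicates 1, 2 and 3. Like miR-132, it was highest in R719W replicate 1 and, within WT, in replicate 2. let-7i and miR-433, a miRNA of the imprinted Dlk1-Dio3 region, rose (log2 fold changes 1.11 and 1.23, edgeR adjusted p = 0.0254 and 0.0452). Of all tested miRNAs 12.7% rose. These neighbours were picked for likeness to miR-132 over the same libraries, so a shared direction and a shared highest library follow from the choice. The call of let-7i was lost without WT replicate 1 or WT replicate 3, and that of miR-433 with DESeq2 or its size factors and in every fit with 1 library left out except the one without R719W replicate 2. miR-455 had a log2 fold change of 0.92 (SE 0.33, edgeR adjusted p = 0.0810).

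For miR-221 the nearest patterns were those of miR-7a, miR-34a and miR-30d, at 0.16, 0.17 and 0.19 log2 units, against a median of 0.49. miR-34a, a miRNA induced by the tumour suppressor Trp53, stood at 134, 113 and 140 CPM in WT replicates 1, 2 and 3 and at 79.5, 155 and 133 CPM in R719W replicates 1, 2 and 3. These 3 miRNAs shared the lowest level in R719W replicate 1, and none of them passed the test (log2 fold changes 0.29, −0.074 and −0.20, edgeR adjusted p = 0.555, 0.816 and 0.451). Both traits follow largely from picking them for likeness to miR-221 over the same libraries. The patterns of miR-132 and miR-221 themselves differed by 0.97 log2 units. R719W replicate 1 thus held the highest miR-132 and the lowest miR-221, and R719W replicate 2 the reverse within its genotype.

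**Figure D4:**
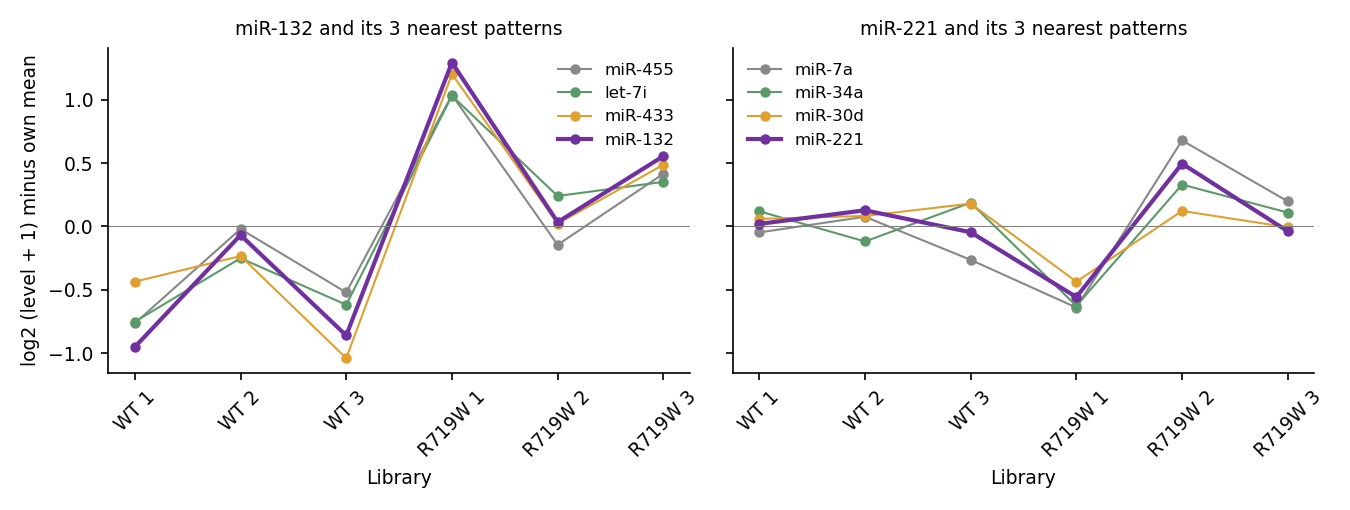
Log2 of level + 1, minus each miRNA's own mean, in the 6 libraries, for miR-132 (left) and miR-221 (right) in purple with the 3 miRNAs of nearest pattern; lines only join the points of a miRNA. R719W replicate 1 is the highest library for miR-132 and its neighbours and the lowest for miR-221 and its neighbours. The neighbours were picked for likeness over these same libraries.

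Other miRNAs known to promote cardiac growth were called in both directions. Of the miRNAs listed as growth promoting, 12 were tested, of which 3 rose, 1 fell and 8 did not pass, against 12.7% higher and 7.18% lower of all tested miRNAs. Those that rose were miR-21, miR-199a-5p and miR-214, all also known from fibroblasts, with log2 fold changes of 1.89 (SE 0.22), 2.83 (SE 0.26) and 3.25 (SE 0.28), and all 3 passed in each of the 6 fits with 1 library left out. The one that fell was miR-499, which is made from an intron of the myosin gene Myh7b, at −1.14 (SE 0.20), a call lost without WT replicate 1 or WT replicate 3. The median log2 fold change of the 12 was 0.13, against 0.10 over all tested miRNAs. The 2 most abundant, miR-208a and miR-22, stood at −0.58 (SE 0.26) and −0.20 (SE 0.17) and did not pass. The joint entry of miR-199b and miR-199a-3p did not match the list by name and is outside these counts. It rose as well, with a log2 fold change of 0.87 (SE 0.23, edgeR adjusted p = 0.0276).

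Of the miRNAs listed as growth restraining, 8 were tested, of which 0 rose, 4 fell and 4 did not pass by edgeR, with a median log2 fold change of −0.52. Of all tested miRNAs 7.18% fell. The calls rested on the scaling and on single libraries: 0 of the 4 passed by edgeR without WT replicate 1, without WT replicate 3, without R719W replicate 3 or with library totals alone, and 2 passed without WT replicate 2 or with totals that leave out the 5 most abundant miRNAs. With limma on the deposited CPM 0 of the 4 passed, and with the replicate number as a block 1 passed in edgeR, while all 4 passed with DESeq2 and with its size factors. The 4 were miR-185 (−1.03, SE 0.20), miR-150 (−0.80, SE 0.19), miR-378 (−0.72, SE 0.17) and miR-26b (−0.66, SE 0.17), where miR-150 is also known from lymphocytes and miR-378 is encoded within Ppargc1b, a gene of mitochondrial metabolism. The most abundant member, miR-1, did not pass at −0.38 (SE 0.25). Only 1 tested member, miR-98, had a positive log2 fold change, and it did not pass either (1.07, SE 0.38, edgeR adjusted p = 0.0819). Log2 fold changes shift by a median of −0.11 with the size factors of DESeq2 and of 0.21 with library totals alone.

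The 4 miRNAs are made by several cell types of the heart, and in whole ventricle fewer cells of a type and less RNA per cell cannot be told apart. Markers of other cells moved with genotype beside miR-132. The fibroblast entries miR-214 and miR-199a-5p summed to 80.8 to 145 CPM in WT and 838 to 1163 CPM in R719W, and both rose. This sum leaves out the joint entry of miR-199b and miR-199a-3p. Its mean went from 74.9 CPM in WT to 137.5 CPM in R719W, a log2 fold change of 0.87 (SE 0.23), smaller than that of either summed entry. The 8 leukocyte entries summed to 907 to 1044 CPM in WT and 1122 to 1499 CPM in R719W, highest in R719W replicate 1; of the 6 tested, 0 rose and 2, miR-150 and miR-342-3p, fell (edgeR; 12.7% and 7.18% of all tested miRNAs), neither of which passed without WT replicate 1, WT replicate 3 or R719W replicate 3. The leukocyte miRNA miR-142-3p stood at 0.64 (SE 0.21, adjusted p = 0.0625). Their part in the level of miR-132 was not tested.

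Markers of the vessel wall, where miR-221 and miR-222 are known, did not pass the test. The 2 arms of miR-126, from endothelium, summed to 17980 to 22206 CPM in WT and 15193 to 16805 CPM in R719W, and neither passed (log2 fold changes −0.26, SE 0.21, and −0.33, SE 0.19). miR-143 and miR-145, from smooth muscle, summed to 20924 to 36206 CPM in WT and 17214 to 25584 CPM in R719W, and neither passed (−0.45, SE 0.25, and −0.18, SE 0.17). The 3 erythroid entries summed to 1966 to 3301 CPM in WT and 1361 to 2570 CPM in R719W, and 0 passed by edgeR (miR-451 at −0.48, SE 0.34, miR-486 at −0.62, SE 0.29). Of the 5 tested cardiomyocyte entries miR-499 fell and 4 did not pass, against falls in 7.18% of all tested miRNAs; the list summed to 523747 to 786673 CPM in WT and 398348 to 547475 CPM in R719W.

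miR-132 is also abundant in neurons. The 7 neuronal entries summed to 63.4 to 83.9 CPM in WT and 67.2 to 74.5 CPM in R719W, with 0 reads of miR-124 and miR-129-3p in the 6 libraries. Of the 2 tested, miR-128 stood at −0.080 (SE 0.24) and miR-138 at 0.78 (SE 0.47), and neither passed. Any part of neuronal RNA in the level of miR-132 was not tested.

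**Figure D5:**
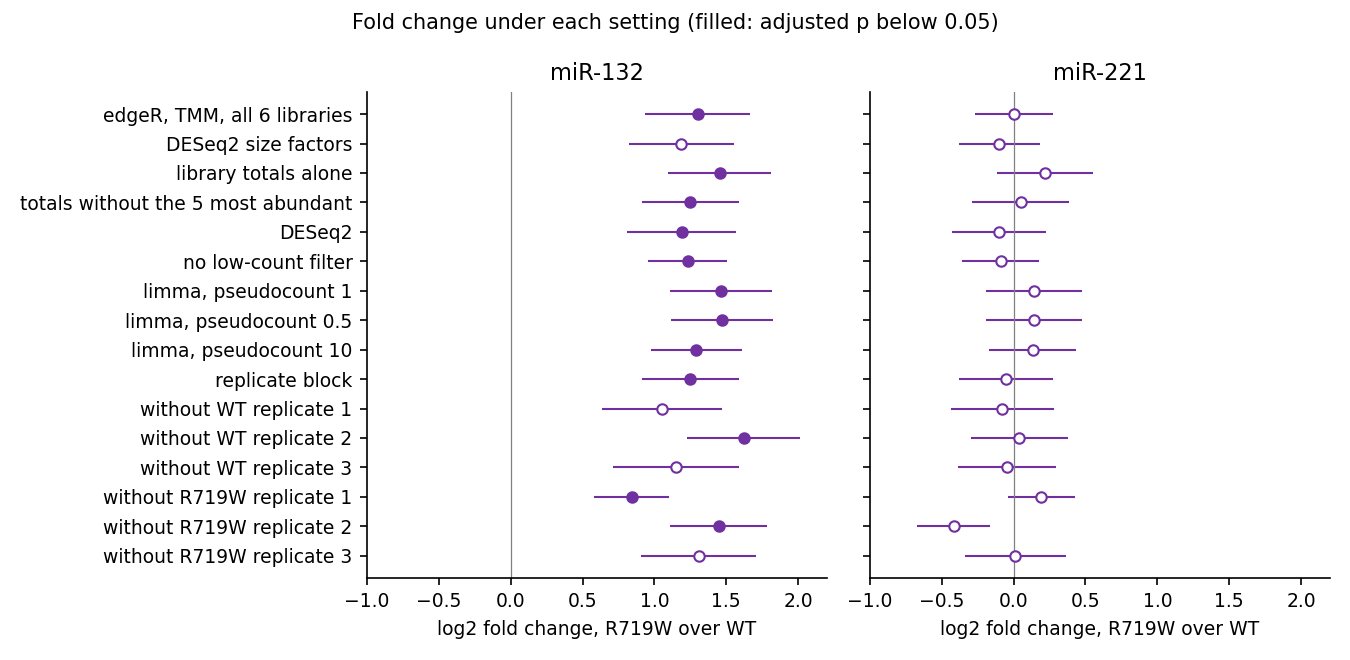
Log2 fold change of miR-132 (left) and miR-221 (right) with SE bars in the fit reported above (top) and in the 15 alternatives; filled points have an adjusted p below 0.05. miR-132 lies between 0.84 and 1.62 throughout and passes in 11 of the 15 alternatives, and miR-221 lies on both sides of 0 and passes in none.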

How the data were processed

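Small-RNA libraries of 6 left ventricle samples (3 WT, 3 R719W) were prepared from total RNA isolated with a kit that keeps small RNAs, per the labels' protocols. The authors deposited 1 table per genotype with read counts per mature miRNA, not normalized per the file headers, and a normalized value. That deposited value equals CPM over the listed miRNAs within a relative gap of 4.6e-15. The sources used here do not name the aligner, mismatches allowed, annotation release or build, nor how reads close to both miR-132 and miR-212 were divided. The barcode in header and description links each column to its sample.

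The counts went into edgeR 4.0.16 (R 4.3.3): filterByExpr (minimum count 10, total 15; 181 miRNAs kept, 517 not tested), TMM (factors 0.83 to 1.22), then the quasi-likelihood fit and two-sided F test (glmQLFit, glmQLFTest), calling miRNAs at a Benjamini-Hochberg adjusted p below 0.05 over the tested miRNAs. The biological coefficient of variation was 22.5%. SE is the absolute log2 fold change over the square root of F. The edgeR step was also run on simulated counts that gave every miRNA the same dispersion, so that run does not gauge its errors on these libraries. Pair shares and pair ratios were compared by exact permutation in SciPy 1.17.1. DESeq2 1.42.0 and limma 3.58.1 (on log2 of the deposited CPM plus a pseudocount) served as alternatives. Hairpin places are from GENCODE M21 and sequences from RefSeq (both GRCm38); the 4 members matched by name and sequence.

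The members and the lists of growth and cell type miRNAs were chosen with earlier results of these data known. An entry joined a list by name, whichever its arm, without asterisk forms, and the lists overlap. The joint entry of miR-199b and miR-199a-3p did not match by name and joined no list. Other miRNAs named are those with a member's seed, the 3 nearest patterns of each tested member, and of each list the called and the 2 most abundant tested entries. miR-98, miR-124, miR-129-3p and the joint entry of miR-199b and miR-199a-3p were named after their values were seen.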

Additional observations from a re-analysis of the deposited data

How the results depend on the processing

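The number of called miRNAs, 36, ranged from 4 to 56 when 1 library was left out, and was 22 with at least 100 reads in 3 libraries and 20 where the library totals left out the 5 most abundant miRNAs; no other setting moved it by over 1.5 times. miR-132 was positive in all 15 alternatives. It was not called with DESeq2's size factors in edgeR (1.19), and ranged from 0.84 to 1.62 with 1 library left out, with the call lost in 3 of 6 such fits. miR-221 was called in none and turned negative with DESeq2's size factors (−0.10), DESeq2 itself (−0.10), no low-count filter (−0.090), the replicate block (−0.053) and in 3 of 6 fits with 1 library left out (−0.42 to 0.19). No member reached 100 reads in 3 libraries, so that filter gave no value for them. Without a filter, miR-222 stood at −0.31 and miR-212, on 2 reads, at −0.33 (log2 fold change). With 1 library left out, the difference in the log2 ratio of miR-222 to miR-221 ranged from −0.71 to 0.24. The log2 ratio of the shares of the pair of miR-221 and miR-222 was 0.15, between −0.084 and 0.45 with 1 library left out and −0.062 without the 5 most abundant miRNAs in the total. The difference in the log2 ratio of miR-132 to miR-221 was 0.73 to 1.89 with 1 library left out, and that of miR-132 to miR-212 was 1.10 to 2.16. The log2 ratio of the shares of the pair of miR-132 and miR-212 was 1.22 to 1.85. These moved by less than the SD pooled over both genotypes. With 0 or 1 read of miR-212 per library, its ratio and the share of its pair mainly follow miR-132 and do not show the balance of the pair. The labels do not say whether replicate numbers pair the libraries. Deviations of same-numbered libraries correlated at −0.38 to −0.00077, and no library correlated best with its own number. With 3 libraries per genotype these correlations depend on each other, so they cannot decide it. With the number as a replicate block 30 miRNAs were called, and miR-132 stood at 1.25. Low counts limit miR-222 and miR-212 most.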
